A study of Homo sapiens with 8 samples.

Results

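The genes described here are 47 genes of the type I interferon response, chosen by name and sorted by role into 7 sensors and adaptors, 10 signalling genes and 30 induced genes. Of these, 45 had a probe set annotated with that symbol alone, out of 18417 genes tested. No probe set with STAT2 or GBP1 as its single symbol was analysed here. Each of the 45 was measured by 1 such probe set.

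Expression was measured on Affymetrix human gene arrays in U2OS, a human osteosarcoma cell line, grown as described in the labels in DMEM with serum. The comparison asked how transcript levels change when CDK9, the kinase of the elongation factor P-TEFb, is silenced. One group of 4 cultures ("CDK9 Knock Down") received siRNA against CDK9, and the other 4 ("Nonspecific siRNA") received a non-targeting siRNA, both at 10 nM with the same transfection reagent and collected after 72 h. All 8 cultures were therefore transfected with siRNA, and a response shared by both groups does not appear in their difference. No untransfected or interferon-treated culture was analysed here.

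Type I interferons are antiviral cytokines whose production begins when receptors inside the cell bind foreign nucleic acid. RIG-I (RIGI), MDA5 (IFIH1) and the endosomal receptor TLR3 bind double-stranded RNA and lead to transcription of interferon genes such as IFNB1. Secreted interferon binds the receptor made of IFNAR1 and IFNAR2, and the kinases JAK1 and TYK2 activate a complex containing STAT2 and IRF9 that binds the interferon-stimulated response element (ISRE) before the induced genes. Short RNA duplexes such as siRNA can be ligands of some of these sensors, which makes the family a usual check in siRNA experiments.

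The deposited log2 values put replicate 1 of both groups on a lower scale than replicates 2 to 4. Median values over all probe sets were 5.85 and 5.80 in replicate 1 of the CDK9 siRNA and control groups, and 6.99 to 7.04 in the other 6 arrays. The replicate 1 pair is called the first set (array set 1 in the plots, 1 array of each group) and replicates 2 to 4 the second set (array set 2, 3 of each group), a division that the numbers in the sample descriptions also show. Differences are from limma, fitted with the set as a block. An adjusted p (Benjamini-Hochberg, all 18417 genes) under 0.05 is the threshold for "rose" and "fell". CDK9 itself fell by 1.82 on the log2 scale (± 0.05 SE, n = 4 per group). Genes whose mean lay in the lowest 30% of all genes (below 6.14) are called dim. Tests of a difference between the sets take their spread from the second set alone and assume that the lone replicate 1 arrays vary like the others, so that 1 unusual array in replicate 1 would give the same result. Of 10 osteoblast and mesenchymal markers 2 were dim (ALPL and IBSP) and 3 fell, RUNX2 (-0.60, adjusted p = 0.000344), COL1A1 (-0.51, adjusted p = 0.0011) and VIM (-0.19, adjusted p = 0.0320) in limma. Of 14 leukocyte, epithelial and endothelial markers 12 were dim. Among those 14, EPCAM (0.32, adjusted p = 0.0366) and TEK (0.30, adjusted p = 0.0247), both dim, rose in limma (14.3%, against 6.73% of all genes tested). The summed log2 level of the 6 leukocyte markers was 27.7 in the first set and 32.9 to 33.4 in the second set of the CDK9 siRNA group, against 26.7 and 33.2 to 33.5 in the controls. For the 4 epithelial markers the sums were 20.1 and 25.2 to 25.5 against 20.1 and 24.7 to 25.5, and for the 4 endothelial markers 17.2 and 23.0 to 23.2 against 16.8 and 22.4 to 22.9. Their part in the results was not tested.

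The interferon response genes as a whole did not shift in one direction. Of the 45 measured genes, 3 rose (IFIT2, IFI44 and IFNAR1) and 4 fell (TRIM22, IRF9, ISG20 and BST2), which is 15.6% of them, against a background of 14.2% of all genes tested (6.73% rose and 7.47% fell). The share called is thus near the background. Where same-numbered arrays were treated as pairs instead (replicate number as block), 5 of the 45 passed (11.1%), against 9.17% of all genes. The median log2 difference was -0.02 over the 45 genes and 0.00 over all genes, with 20 of the 45 higher and 25 lower. IFIT2, IFI44 and TRIM22 (6.67% of the 45) had a difference larger than 0.5 on the log2 scale. The share over all genes was smaller, at 400 of 18417. For 36 of the 45 genes the 95% confidence interval lay within 0.5 of zero in either direction, as a difference over both sets. Of these 36 genes 13 were dim, and 5 (IFIH1, IFI16, IFI35, IFI44L and PARP9) differed by more than 0.5 in the replicate 1 pair.

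**Figure D1:**
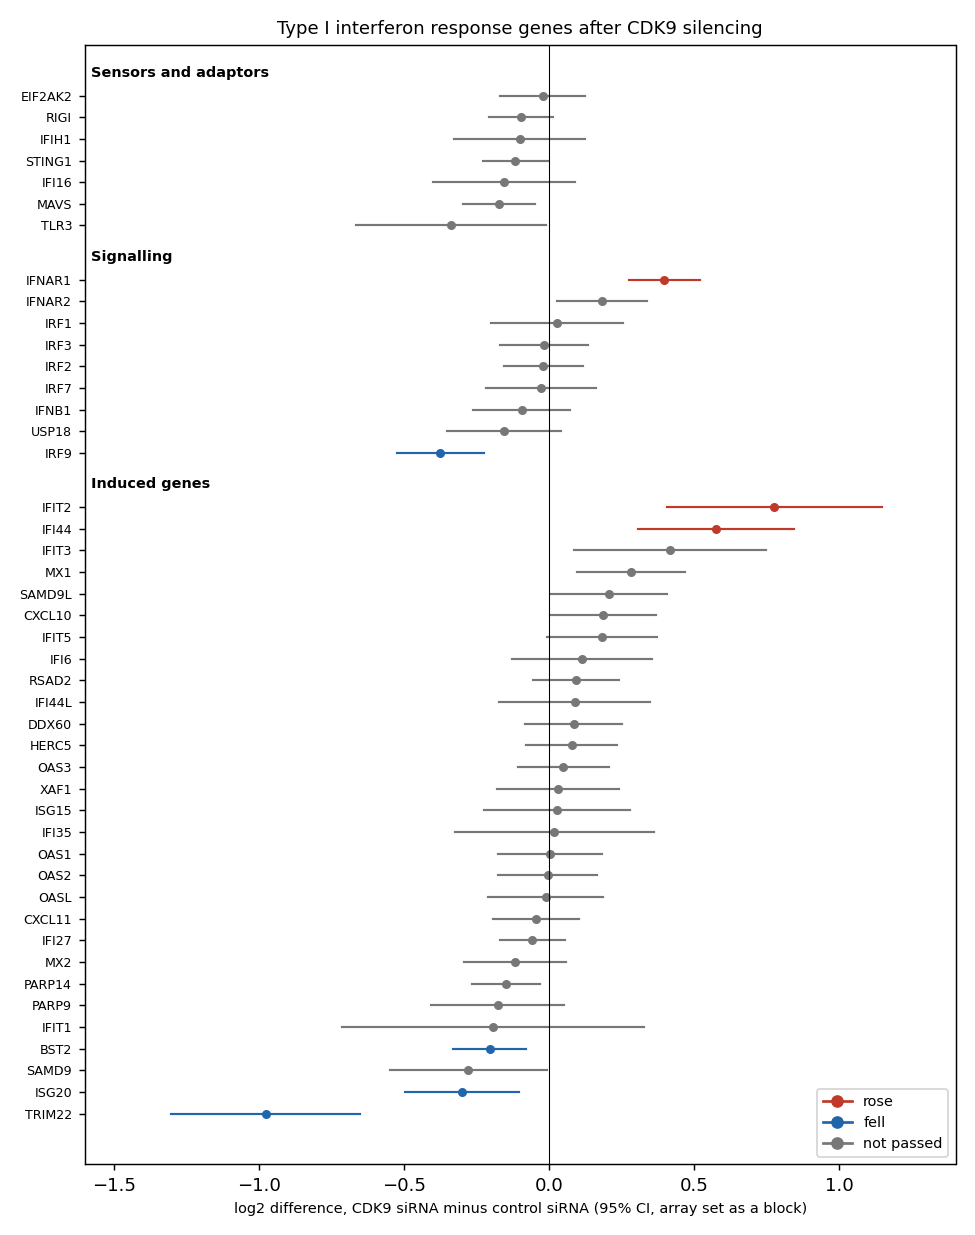
Log2 difference (CDK9 siRNA minus control siRNA, horizontal axis) with its 95% confidence interval for each of the 45 measured genes, grouped by role, with 4 arrays per group and the array set as a block. Genes that passed the test are red (rose, 3) or blue (fell, 4). The points of the sensors and adaptors all lie left of zero, and none passed.

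None of the 7 sensors and adaptors passed the test in limma, while 3 of the 7 had an unadjusted p under 0.05, as did 28.0% of all genes. All 7 differences were below zero over both sets, with a median of -0.12 on the log2 scale against 0.00 over all genes, but IFIH1, IFI16 and EIF2AK2 were above zero in replicates 2 to 4 alone (0.05, 0.02 and 0.05). RIGI, a cytosolic sensor of short double-stranded RNA ends, had log2 values, from replicate 1 to 4, of 6.44, 8.18, 8.25 and 8.15 after CDK9 siRNA and of 6.46, 8.34, 8.29 and 8.32 in the controls. Values below follow that order. Each CDK9 siRNA array was slightly below the control of the same number, and in the second set the groups did not overlap. The log2 difference was -0.10 (95% confidence interval -0.21 to 0.01, adjusted p = 0.246 in limma).

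IFIH1, the sensor of long double-stranded RNA, read 4.44, 7.0, 6.96 and 7.01 against 5.01, 6.90, 6.93 and 6.97. It was lower than its control in replicate 1 and overlapped the controls in replicates 2 to 4. The difference was -0.57 in the first set and 0.05 in the second set, and the difference between the sets, with 1 pair of arrays in the first, had adjusted p = 0.028 (limma interaction term). TLR3 read 5.21, 7.28, 7.13 and 7.19 against 6.17, 7.32, 7.54 and 7.13. Replicate 1 was again the lowest relative to its control, while the groups overlapped in the second set. Its log2 difference of -0.34 did not pass (95% confidence interval -0.67 to -0.01, adjusted p = 0.165 in limma).

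EIF2AK2, the kinase PKR that double-stranded RNA activates to block translation, was close to its control in the second set. It read 9.40, 10.65, 10.71 and 10.77 in the CDK9 siRNA group and 9.65, 10.64, 10.68 and 10.65 in the controls. Its log2 difference was -0.02 (95% confidence interval -0.17 to 0.12). IFI16, a sensor of DNA, read 7.12, 9.67, 9.67 and 9.61 against 7.79, 9.60, 9.67 and 9.63. The groups overlapped in the second set, and the whole difference came from replicate 1 (-0.67 in the first set and 0.02 in the second set, adjusted p = 0.0237 for the difference between sets in limma).

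The adaptors showed small differences of one sign. MAVS, the mitochondrial adaptor of RIG-I and MDA5, read 7.21, 8.42, 8.54 and 8.50 against 7.51, 8.57, 8.67 and 8.61. It was lower in all 4 pairs of the same number without overlap in the second set, yet its log2 difference of -0.17 did not pass (± 0.06 SE, adjusted p = 0.0709 in limma). With dim genes left out the adjusted p was 0.0386. STING1, the adaptor of cytosolic DNA sensing, read 5.83, 7.87, 7.85 and 7.89 against 6.004, 7.94, 8.04 and 7.92. It too was lower in all 4 pairs, by 0.12 on average (log2 difference -0.12, adjusted p = 0.166 in limma).

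**Figure D2:**
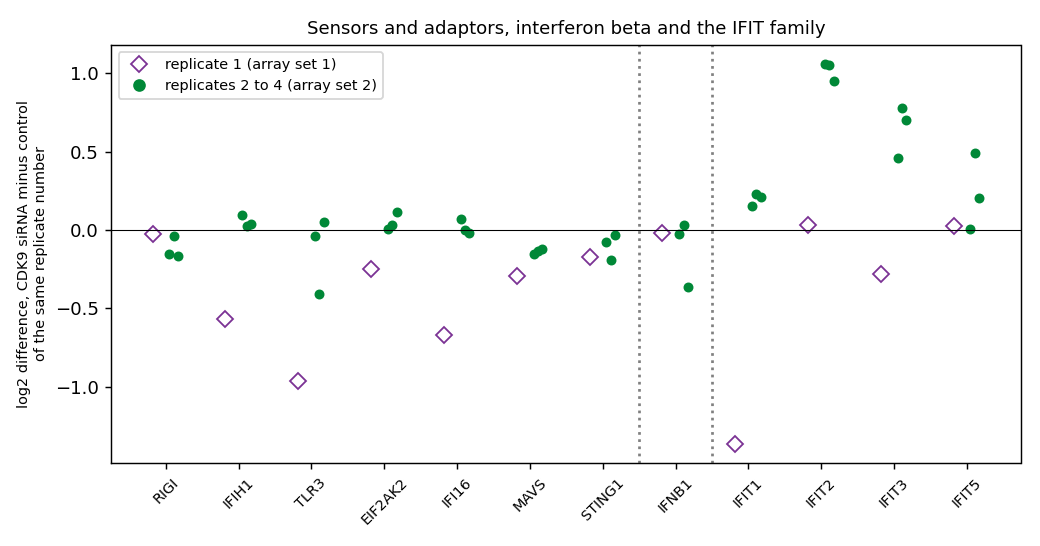
Log2 difference of each CDK9 siRNA array from the control array of the same replicate number (vertical axis) for the 7 sensors and adaptors, IFNB1 and the 4 IFIT genes. Open diamonds are replicate 1 and green points replicates 2 to 4. Among the sensors, the replicate 1 values of IFIH1, TLR3 and IFI16 lie at -0.57, -0.96 and -0.67. IFIT2 lies near zero in replicate 1 and between 0.95 and 1.06 in the other 3.

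Of the 9 measured signalling genes, IFNAR1 rose and IRF9 fell (22.2%, against 14.2% of all genes tested). IFNB1, which encodes interferon beta, was dim and did not differ detectably. It read 2.88, 3.98, 3.95 and 3.68 in the CDK9 siRNA group and 2.90, 4.004, 3.92 and 4.05 in the controls, with overlapping groups. The log2 difference was -0.09 (95% confidence interval -0.26 to 0.07). A probe set this low may not track its transcript, so the interval bounds the signal and not the amount of mRNA.

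IFNAR1, a subunit of the receptor for all type I interferons, rose 1.32-fold. It read 9.07, 9.64, 9.74 and 9.73 against 8.79, 9.29, 9.22 and 9.29. Every CDK9 siRNA array was above the control of the same number, and the groups did not overlap in the second set. Its log2 difference came to 0.40 ± 0.05 (SE, n = 4 per group, adjusted p = 0.00196 in limma), with 0.27 in the first set and 0.44 in the second set. IFNAR2, the other subunit, read 7.01, 8.26, 8.46 and 8.35 against 6.85, 8.05, 8.16 and 8.30. It was higher in all 4 pairs but overlapped in the second set, and its log2 difference of 0.18 did not pass (± 0.07 SE, adjusted p = 0.115 in limma).

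The gene next to each of these on chromosome 21, in the order of the RefSeq table among genes tested, is IL10RB, which encodes a receptor subunit shared by interleukin-10 and type III interferons. IL10RB rose by almost the same amount as IFNAR1, with a log2 difference of 0.40 ± 0.06 (SE, n = 4 per group, adjusted p = 0.00268 in limma). It read 9.26, 10.27, 10.38 and 10.32 against 8.84, 9.87, 9.86 and 10.05. IFNGR2, the interferon gamma receptor subunit that follows IFNAR1 in this row, differed by 0.14, which did not pass (adjusted p = 0.226 in limma). The row was described after the values had been seen, and no test was made of it as a group.

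IRF9, the DNA-binding subunit of the complex that carries the interferon signal to the nucleus, fell to 0.771 times the control level. It read 5.88, 7.90, 7.80 and 7.93 against 6.46, 8.25, 8.18 and 8.12. All 4 pairs were lower, and the second set showed no overlap. Its log2 difference came to -0.37 ± 0.07 (SE, n = 4 per group, adjusted p = 0.00635 in limma), with -0.58 in the first set and -0.31 in the second set.

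The interferon regulatory factors that activate interferon genes did not pass. IRF3, which MAVS, STING1 and TLR3 signalling activates by phosphorylation, read 7.80, 8.88, 8.99 and 9.05 against 7.62, 8.99, 9.13 and 9.05. IRF7, an interferon-inducible amplifier of the same response, read 7.01, 7.71, 7.62 and 7.71 against 6.70, 7.91, 7.76 and 7.79. The IRF3 groups overlapped in the second set. IRF7 was below its controls in the second set and above its control in the first set, and the log2 differences were -0.02 for IRF3 and -0.03 for IRF7. IRF2, a repressor and activator of the family, differed by -0.02. IRF1 differed by 0.03, made up of -0.43 in the first set and 0.18 in the second set (adjusted p = 0.0438 for the difference between sets in limma). USP18, the protease that removes ISG15 and dampens receptor signalling, differed by -0.16, which did not pass (adjusted p = 0.288 in limma).

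Among the 29 measured induced genes 2 rose and 3 fell (17.2%, against 14.2% of all genes tested). Of the 29, 13 were dim (44.8%, against 30% of all genes by definition). The median log2 difference was 0.03, with 17 higher and 12 lower. The IFIT genes, which encode proteins that bind foreign RNA and block its translation, lie close together on chromosome 10. In the second set the differences of IFIT2, IFIT3, IFIT1 and IFIT5 were all above zero (1.02, 0.65, 0.20 and 0.235). In the first set, which is 1 pair of arrays, they were 0.03, -0.28, -1.36 and 0.03. Of these genes IFIT2 alone passed over both sets. IFIT2 read 4.92, 7.57, 7.67 and 7.81 in the CDK9 siRNA group and 4.89, 6.505, 6.61 and 6.85 in the controls. The 3 arrays of the second set were all clearly above the controls, while the replicate 1 pair was level.

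IFIT2 rose 1.71-fold over both sets (log2 difference 0.78 ± 0.16 SE, n = 4 per group, adjusted p = 0.0139 in limma). The difference was 0.03 in the first set and 1.02 in the second set. A test of the difference between the sets gave adjusted p = 0.056 in limma. IFIT3 read 5.02, 7.49, 7.73 and 7.70 against 5.30, 7.03, 6.95 and 7.0, and so was above its controls without overlap in the second set and below its control in the first set. Its log2 difference of 0.42 over both sets did not pass (± 0.15 SE, adjusted p = 0.0971 in limma), although in the second set alone it was 0.65 (adjusted p = 0.00172 in limma). Leaving out either replicate 1 array gives that same value, since the remaining array of set 1 then has no partner.

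IFIT1 went the other way in the first set. It read 4.48, 8.63, 8.80 and 8.84 against 5.85, 8.48, 8.58 and 8.63, which is lower in replicate 1 and higher in each of the other 3 pairs. The difference was -1.36 in the first set and 0.20 in the second set (adjusted p = 0.0125 for the difference between sets in limma), and over both sets -0.19 with a wide interval (95% confidence interval -0.71 to 0.33). IFIT5 differed by 0.18, which did not pass (adjusted p = 0.196 in limma). The level of IFIT1 relative to the array median over genes tested was -0.59 in control replicate 1 and 0.92 ± 0.08 (SD, n = 3) in the other controls. The sets may have been normalized apart, so this gap is a description of the deposited values only.

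Promoter sequences are shown for IFIT3, IFIT1 and IFIT5, for IFI44, which rose, and for ISG20 and BST2, which fell, because all 6 carry the ISRE letters. The IFIT genes shown did not pass over both sets. Each line holds the 180 bases before the annotated start, from RefSeq (GRCh38.p14), 5′ to 3′ on the gene's strand, with matches to GAAANNGAAA on either strand in capitals. IFIT3 and IFI44 have 2 windows each, and the window shown was picked by its number of matches, the highest first. The windows are chr10:89327817-89327996, chr10:89392443-89392622 and chr10:89414388-89414567 (plus strand) for IFIT3, IFIT1 and IFIT5, chr1:78649609-78649788 (plus) for IFI44, chr15:88638836-88639015 (plus) for ISG20 and chr19:17405631-17405810 (minus) for BST2.
IFIT3: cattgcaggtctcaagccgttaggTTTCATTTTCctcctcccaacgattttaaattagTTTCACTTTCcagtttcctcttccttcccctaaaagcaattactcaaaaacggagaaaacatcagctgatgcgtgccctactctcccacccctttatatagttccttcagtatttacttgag
IFIT1: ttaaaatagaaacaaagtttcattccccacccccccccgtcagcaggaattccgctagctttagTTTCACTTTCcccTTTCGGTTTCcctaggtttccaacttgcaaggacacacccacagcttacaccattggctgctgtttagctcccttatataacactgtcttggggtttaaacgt
IFIT5: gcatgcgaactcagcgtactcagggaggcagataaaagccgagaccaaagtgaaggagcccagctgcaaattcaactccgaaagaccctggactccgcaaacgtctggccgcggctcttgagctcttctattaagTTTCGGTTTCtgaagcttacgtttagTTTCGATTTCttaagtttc
IFI44: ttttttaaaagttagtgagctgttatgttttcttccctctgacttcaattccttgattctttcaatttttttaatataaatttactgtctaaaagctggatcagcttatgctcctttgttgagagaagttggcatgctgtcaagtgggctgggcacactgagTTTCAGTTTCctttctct
ISG20: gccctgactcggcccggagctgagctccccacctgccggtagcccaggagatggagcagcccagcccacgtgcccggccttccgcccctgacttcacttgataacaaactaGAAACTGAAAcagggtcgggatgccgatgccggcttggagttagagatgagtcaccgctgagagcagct
BST2: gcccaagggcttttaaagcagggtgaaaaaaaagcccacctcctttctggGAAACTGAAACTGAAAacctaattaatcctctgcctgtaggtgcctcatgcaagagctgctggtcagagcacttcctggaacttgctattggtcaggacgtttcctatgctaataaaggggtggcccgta

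The ISRE letters GAAANNGAAA were searched on both strands in the 250 bases before the start of every gene in the RefSeq table, counting a gene where any of its windows held a match. Promoters of 36 of the 47 genes were matched. The letters were found for 20 of 25 induced genes (80.0%), 1 of 6 sensors and adaptors (IFIH1) and 0 of 5 signalling genes, against 3.71% of the 27305 genes in the table. IFIT3, IFIT1 and IFIT5 held 2 matches each, at 156 and 122, 116 and 103, and 45 and 19 bases before the start, and BST2 2 that overlap by 4 bases. The letters TTCNNNGAA of the gamma-activated site, which were searched the same way and are not marked in the lines above, were found for 8 of the 25 induced genes (32.0%) and 8.09% of all. Among induced genes with a promoter and a measured transcript, the ISRE letters were present in the 1 that rose, in both that fell and in 16 of 21 that did not pass. IFIT2 and TRIM22 are not among these genes. A match describes the letters in these windows and is no evidence of binding.

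IFI44, a cytoplasmic interferon-induced protein whose mode of action is little known, rose 1.49-fold but was dim. It read 3.79, 5.95, 6.17 and 6.34 against 3.56, 5.40, 5.68 and 5.31. All 4 CDK9 siRNA arrays were above the control of the same number, and the second set showed no overlap. Its log2 difference came to 0.57 ± 0.12 (SE, n = 4 per group, adjusted p = 0.0128 in limma). Its neighbour on chromosome 1, IFI44L, differed by 0.09 with overlapping groups (adjusted p = 0.681 in limma).

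TRIM22, an antiviral ubiquitin ligase that is also a known p53 target, had the largest difference of the 45 genes. It read 5.90, 8.83, 8.85 and 8.82 against 7.59, 9.54, 9.65 and 9.52. The groups were far apart within each array set. It fell to 0.508 times the control level (log2 difference -0.98 ± 0.15 SE, n = 4 per group, adjusted p = 0.00281 in limma). The fall was -1.70 in the first set and -0.74 in the second set (adjusted p = 0.0142 for the difference between sets in limma, with 1 pair in the first).

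ISG20, an exonuclease that degrades RNA, and BST2 (tetherin), which holds budding virus at the cell surface, fell by small amounts near the threshold. ISG20 read 5.92, 6.90, 6.47 and 6.72 against 6.32, 6.97, 7.001 and 6.92. BST2, which was dim, read 4.34, 5.002, 5.17 and 5.04 against 4.57, 5.30, 5.21 and 5.30. Both were lower in all 4 pairs, with gaps down to 0.07 for ISG20 and 0.03 for BST2. The log2 differences were -0.30 ± 0.09 for ISG20 (adjusted p = 0.049) and -0.20 ± 0.06 for BST2 (SE, n = 4 per group, adjusted p = 0.0399) in limma. Neither passed when same-numbered arrays were paired (adjusted p = 0.0714 and 0.0981), nor in the second set alone (adjusted p = 0.119 and 0.0648).

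For each of the 7 genes called, an exact two-sided permutation test within array sets gave p = 0.05 over 40 arrangements, the smallest it can give. The test was run only for genes already called from these same arrays, so it is no separate support for the calls. Over all 70 arrangements, which mix arrays of the 2 scales, p ran from 0.114 (IFNAR1) to 0.457.

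**Figure D3:**
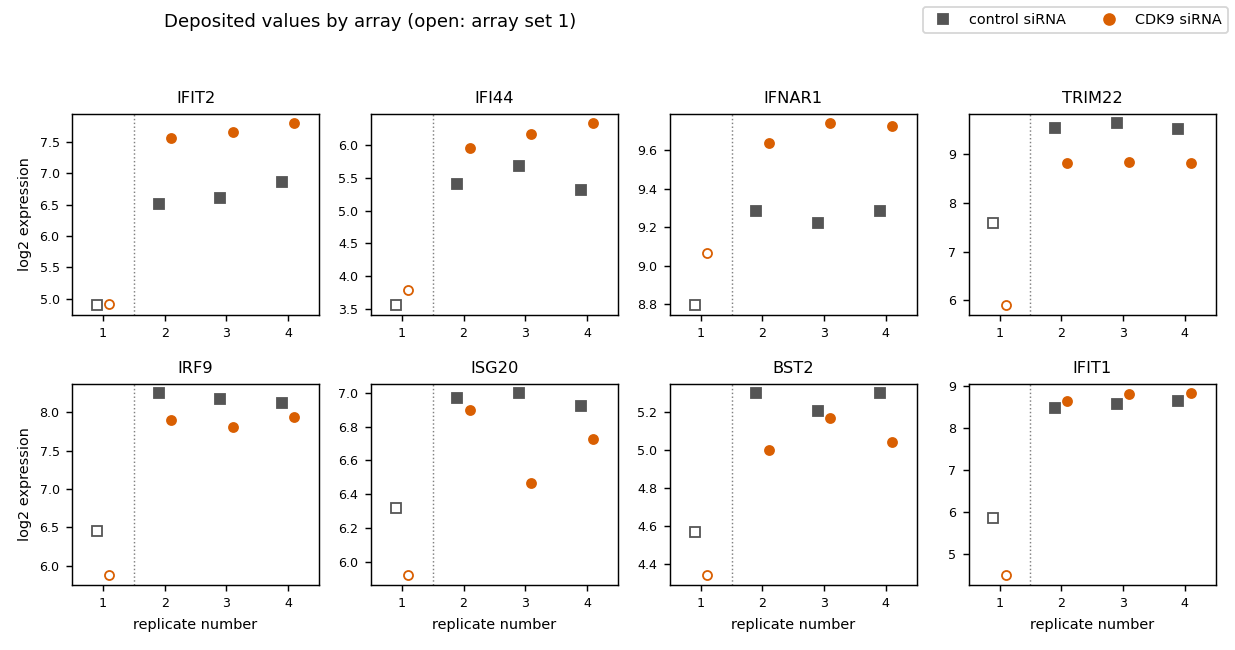
Deposited log2 values (vertical axis, scaled for each gene and not starting at zero) by replicate number for the 7 genes that passed and for IFIT1. Grey squares are control siRNA, orange circles CDK9 siRNA, and open symbols the first set. IFIT2, IFI44, IFNAR1, TRIM22, IRF9, ISG20 and BST2 separate by group within the second set, and IFIT1 overlaps there (8.626 against 8.627 at the nearest).

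Of 8 classical induced genes often read as markers of an interferon response, IFIT2 rose, and IFIT3 passed in the second set alone. IFIT1, ISG15, OAS1, MX1, RSAD2 and CXCL10 did not pass over both sets or in the second set alone. ISG15, a ubiquitin-like modifier, read 6.26, 7.55, 7.44 and 7.16 against 5.81, 7.51, 7.52 and 7.46, with overlapping groups in the second set and a log2 difference of 0.03 (95% confidence interval -0.23 to 0.28). OAS1, which makes the 2-5A messenger that activates RNase L, read 5.997, 7.56, 7.70 and 7.81 against 6.26, 7.56, 7.64 and 7.59. Its groups overlapped too, and the log2 difference was 0.00 (95% confidence interval -0.18 to 0.18). OAS2, OAS3 and OASL of the same family differed by -0.01, 0.05 and -0.01, and 0 of the 4 passed in limma (adjusted p from 0.706 to 0.983; unadjusted p from 0.495 to 0.962).

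MX1, a GTPase that traps viral nucleocapsids, was the nearest to the threshold among genes not called. It read 5.02, 6.40, 6.06 and 6.12 against 4.62, 5.86, 6.003 and 6.002 (dim). All 4 pairs were higher, without overlap in the second set, and the difference was 0.28 ± 0.08 on the log2 scale (SE, n = 4 per group, adjusted p = 0.0511 in limma). It passed after median centring of the arrays (adjusted p = 0.0405) or a further quantile normalization (adjusted p = 0.0412), but not with same-numbered arrays paired (adjusted p = 0.103). MX2, its neighbour on chromosome 21, differed by -0.12 (adjusted p = 0.379 in limma).

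RSAD2 (viperin), which makes a chain-terminating nucleotide, was dim and read 4.12, 4.97, 5.16 and 4.97 against 3.87, 4.95, 4.99 and 5.04. CXCL10, a chemokine induced by interferons, was also dim and read 3.60, 4.45, 4.38 and 4.17 against 3.55, 4.25, 4.05 and 4.01. RSAD2 overlapped its controls in the second set. CXCL10 was higher in all 4 pairs but overlapped, and neither passed, with log2 differences of 0.09 and 0.19 (adjusted p = 0.421 and 0.170 in limma). The related chemokine CXCL11, dim as well, differed by -0.05.

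The remaining induced genes ranged from -0.28 for SAMD9 to 0.21 for SAMD9L, and none passed. These neighbouring genes on chromosome 7 encode related antiviral factors that restrict translation. SAMD9L was higher by 0.33 in the second set (adjusted p = 0.00679 in limma for that set alone) and lower by 0.18 in the first set (log2 difference -0.18). SAMD9 was lower in all 4 pairs, by 0.86 in the first set (log2 difference -0.86) and 0.08 in the second set (log2 difference -0.08), with adjusted p = 0.0163 for the difference between sets in limma. IFI6, an antiviral membrane protein, differed by -0.36 in the first set and by 0.27 in the second set, where it passed (adjusted p = 0.0248 in limma).

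PARP14 and PARP9, ADP-ribosyltransferase family members, differed by -0.15 and -0.18. PARP14 was lower in all 4 pairs (adjusted p = 0.0915 in limma, and 0.0499 with dim genes left out). PARP9 differed by -0.65 in the first set and -0.02 in the second set. IFI27, IFI35, HERC5, XAF1 and DDX60 differed by -0.06, 0.02, 0.08, 0.03 and 0.08.

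The 2 sets did not give the same account of these genes. In the second set alone, 8 of the 45 passed, 6 higher (IFNAR1, IFIT2, IFIT3, IFI6, IFI44 and SAMD9L) and 2 lower (IRF9 and TRIM22). That is 17.8%, against 18.1% of all genes tested in that set. Without overlap in the second set were 21 of 45 genes (46.7%), against 38% of all genes. The 4 differences between arrays of the same number had one sign for 17 of 45 (37.8%), against 33% of all genes.

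The interaction of group and set, tested against the spread of the second set, passed for 8 of the 45 genes (17.8%), against 2.14% of all genes tested. These were TRIM22, IFIT1, IFIT3, SAMD9, PARP9, IFI16, IFIH1 and IRF1. In all 8 the first set's difference lay below the second's, and 5 of them were higher in the second set and lower in the first set. The median difference over the 45 genes was -0.08 in the first set and 0.01 in the second set, against 0.00 and -0.01 over all genes. Array set 1 holds 1 array of each group, so its differences have no replicate of their own, and what sets its 2 arrays apart was not tested.

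The levels of the same genes relative to the array medians differed between the sets. They come from the same arrays as the interaction, so they are no separate support for it. In the CDK9 siRNA group 10 of the 45 genes were lower by more than 1 on the log2 scale in replicate 1 than in the mean of replicates 2 to 4, which is 22.2%, against 2.28% of all genes. In the control group it was 2 of the 45 (4.44%), IFIT1 and IFI44L, against 1.34% of all genes. The 10 genes of the CDK9 siRNA group are those named for the interaction, with IFIT2 and IFI44. The sets may have been normalized apart, and these counts have no test.

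**Figure D4:**
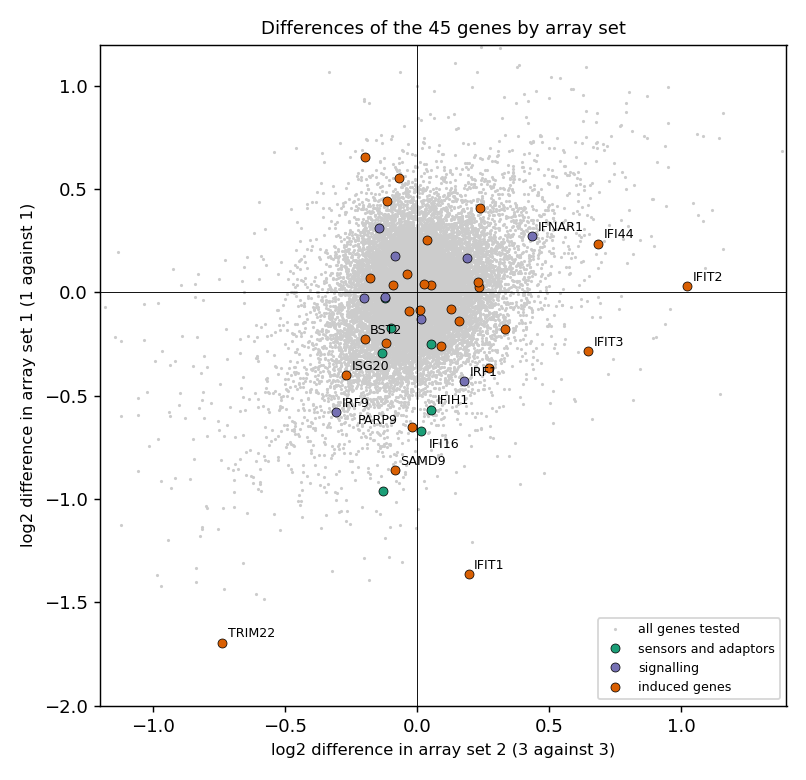
Log2 difference (CDK9 siRNA minus control siRNA) in the first set (vertical axis, 1 array of each group) against that in the second set (horizontal axis, 3 of each group) for the 45 genes, coloured by role, over all 18417 genes tested in grey. Genes that passed the group test or the interaction are named, and 35 genes lie outside the axes. TRIM22 is low in both sets, IFIT1 lies at -1.36 in the first set and 0.20 in the second, and IFIT2 at 0.03 and 1.02.

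Other genes of the pathway, in lists of 75 genes by role, were read as a setting for these. Of the 72 measured, 6 rose and 5 fell (15.3%, against the background of 14.2%), and 4 rose and 3 fell when same-numbered arrays were paired. None of the 12 other sensors and adaptors passed in limma, and 3 of them (25.0%) had an unadjusted p under 0.05, against 28.0% of all genes. Among 18 other kinases, transcription factors, receptors and inhibitors, IL10RB rose, and PTPN2 and JAK1 fell (16.7%). PTPN2, a phosphatase that removes the activating phosphate from JAK1, had a log2 difference of -0.39 ± 0.05 (SE, n = 4 per group, adjusted p = 0.00158 in limma). JAK1, the kinase bound to IFNAR2, had one of -0.23 (adjusted p = 0.0211 in limma, and 0.0598 with arrays paired by number). TYK2, the kinase bound to IFNAR1, and TBK1, which phosphorylates IRF3, differed by -0.10 and 0.00 and did not pass (adjusted p = 0.196 and 0.995).

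Of 42 other induced genes 5 rose and 3 fell (19%, against 14.2% of all genes tested). APOL1, an innate immunity apolipoprotein, rose most, by 1.42-fold (log2 difference 0.50 ± 0.06 SE, n = 4 per group, adjusted p = 0.00112 in limma). It read 7.41, 9.34, 9.45 and 9.39 against 7.10, 8.81, 8.87 and 8.79, with all 4 pairs higher. NMI (0.33), PLSCR1 (0.32), SAMHD1 (0.30), which cleaves deoxynucleotides, and PARP12 (0.29) rose as well. LY6E (-0.30), GBP2 (-0.27, dim) and PML (-0.19), the scaffold of PML nuclear bodies, fell. SAMHD1, PARP12 and PML did not pass in the paired fit (adjusted p = 0.0849, 0.0684 and 0.0789 in limma).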

How the data were processed

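The values are log2 expression levels of 33297 probe sets on 8 arrays, as deposited by the authors in one table. RMA, Affymetrix Expression Console 1.1, limma and the build hg19 are named per the submitters' processing notes, with no role or order given. The sources used here do not give which arrays entered one normalization. By the platform annotation 19460 probe sets had 1 symbol, 1754 had several and 12083 had none. Genes with more than 1 such probe set were represented by the brightest on average, which left 18417 genes. Entrez identifiers were checked against RefSeq (GRCh38.p14), which changed 0 symbols.

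Differences between the groups come from lmFit and eBayes of limma 3.58.1 (R 4.3.3), two-sided, with the array set as block, over all genes. An earlier fit of these data without a block had passed 0 genes. The number of arrays limits the precision, and p-values measure the spread between cultures that the design text calls biological replicates. Same-numbered arrays deviated together from their group means (correlations 0.822, 0.537, 0.494 and 0.607), above the limit of 0.1, so that a fit with the replicate number as a block was an alternative. The set means were not taken out of these deviations, so the scale of replicate 1, shared by both groups, enters all of them. The correlations therefore cannot tell whether replicates 2 to 4 are paired. No pair of arrays was mostly identical (0 pairs). The fits were tested on simulated data. Other alternatives were no block, replicates 2 to 4 alone, re-centring, quantile normalization, leaving out dim genes, averaging probe sets, an intensity trend and leaving out each array. Plots and counts were made in Python 3.11.15 (matplotlib 3.10.9, pandas 2.3.3, numpy 2.4.6).

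The genes and lists were chosen with earlier results of these data known. Values by array are given for genes that passed, the sensors and adaptors, the receptor and main transcription factor genes, 8 classical induced genes and the 5 largest differences. Of the other pathway genes, those that passed are named, with JAK1, TYK2 and TBK1.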

Additional observations from a re-analysis of the deposited data

Results flagged for a closer look

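For 8 genes the first set (replicate 1) and the second (replicates 2 to 4) differed by the interaction term in limma, a test in which the first set is 1 pair of arrays and the spread comes from the second set. The first set's difference less the second's was -1.56 for IFIT1, -0.96 for TRIM22, -0.93 for IFIT3, -0.78 for SAMD9, -0.69 for IFI16, -0.63 for PARP9, -0.62 for IFIH1 and -0.61 for IRF1. Except for TRIM22, none of these genes passed over both sets.

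For 10 of the 45 genes the differences of the 4 same-numbered pairs had 1 value far from the other 3, by the gap to the nearest value as a share of the whole range. The share was 0.952 for IFIT1, 0.900 for TRIM22, 0.899 for SAMD9, 0.897 for IRF1, 0.895 for IFIT2, 0.893 for IFIH1, 0.878 for IFI6, 0.877 for IFI16 and 0.853 for PARP9, and in all of these the value that stood apart was that of replicate 1. For IFNB1 the share was 0.862, and the value that stood apart was that of replicate 4 (-0.37). That is 22.2% of the 45 genes, against 7.52% of all genes. For replicate 1 alone it is 20.0%, against 5.12% of all genes. Chance flags about 1 in 20 groups of independent values from 1 population, but replicate 1 is an array set of its own. The genes share the same 4 pairs, so the rate is no test of these counts. Except for IFIT2 and IFI6, the genes in which replicate 1 stood apart are also among those of the interaction. What sets replicate 1 apart was not tested.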

How the results depend on the processing

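IFNAR1, IRF9, IFIT2, IFI44 and TRIM22 kept their direction and passed in each alternative that kept the array set or replicate block or used replicates 2 to 4 alone (highest adjusted p 0.0122, 0.0255, 0.049, 0.0454 and 0.0141 in limma), except that IFI44 is dim and had no value with dim genes left out. ISG20 passed in 4 of 15 and BST2 in 3 of 14 of these alternatives. The alternatives are not all separate. Leaving out either replicate 1 array gave the same result as replicates 2 to 4 alone. Averaging probe sets left the differences of these genes unchanged. Without any block 0 of the 45 genes, 0 of the pathway genes and 0 of all genes passed in limma, where the unadjusted p was under 0.05 for 0, 0 and 51.

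In the fit with a replicate block 1688 of all genes and 7 pathway genes passed, and among the 45 genes it changed no call other than those of ISG20 and BST2. Pathway genes that passed numbered 18 with dim genes left out and 18 with an intensity trend, against 11 in the main fit. Calls over all genes rose too, to 3070 and 3327 against 2615. Leaving out dim genes cut the genes tested to 12892, and 13 of the 72 pathway genes were dim. Leaving out 1 array at a time gave 5 to 8 of the 45 genes, 1520 to 3331 of all genes and 5 to 15 pathway genes. The count over all genes moved by over 1.5 times without CDK9 siRNA replicate 3 (1654) or control replicate 2 (1715), 3 (1520) or 4 (1685), and that of pathway genes without CDK9 siRNA replicate 3 (6) or control replicate 3 (5) or 4 (7). Fewer arrays were fitted in these.

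In replicates 2 to 4 alone 9 of the 45 genes (20.0%) had the other sign, as had 13.1% of all genes. None of the 9 passed in either. They were IFI16, IRF2, IFI35, IFI44L and OASL, and IFIH1 at 0.055, EIF2AK2 at 0.053, IFIT1 at 0.20 and ISG15 at -0.11. Leaving out 1 array gave -0.14 to 0.055 for IFIH1, -0.057 to 0.053 for EIF2AK2, -0.29 to 0.20 for IFIT1, -0.11 to 0.13 for ISG15, -0.14 to 0.022 for IRF7 and -0.055 to 0.092 for OAS1. Re-centring moved the genes that passed, over all genes tested, from 1239 that rose and 1376 that fell to 1377 and 1121. Signals near background limit what dim genes can show.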
